A study of Mus musculus with 8 samples.

Results

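The cytosolic ribosomal protein genes are 76 of the 19703 genes in the table. They were chosen by symbol: names made of Rpl or Rps and a number, with an optional letter, plus Rplp0, Rplp2 and Rpsa, leaving out pseudogene names that hold -ps and the Rps6k kinase genes. By class they were 38 large-subunit genes, 30 small-subunit genes, the 2 stalk genes Rplp0 and Rplp2, and 6 paralogs (Rpl3l, Rpl7l1, Rpl10l, Rpl22l1, Rpl39l and Rps27l). The class lists name 87 symbols, of which 78 had a row. Rpl41, Rplp1 and Fau are among those not analysed here. Of the 76 genes, 74 averaged at least 10 normalized counts and entered the tests over 11083 genes, and 72 had a mean of at least 1000.

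Regulatory T cells (Tregs), the FOXP3-positive CD4 T cells that hold immune responses in check, came from a Foxp3-GFP reporter strain and are titled WT (wild type) in every group. All cultures held anti-CD3/CD28 beads and the Th17-promoting cytokines IL6, IL23 and IL1B, and RNA was taken on day 6. The groups used here are 4 libraries titled as untreated Tregs, with those additions alone, and 3 titled as given FcCD70, a soluble form of the CD27 ligand CD70. The question was how CD27 signalling changes the Treg transcriptome during Th17 polarization. The strain, the beads and the cytokines were shared by both groups, and the animals' age was not given in the labels. The labels list 4 samples per group, and the FcCD70 sample numbered 4 was not analysed here. For all 8 samples the treatment field names the opposite of the title. The titles, which the table's column names match, set the groups, and each direction given depends on them being right. Whether the libraries came from separate mice is not said, so the p-values cover only library-to-library spread, part or all of which may be technical.

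Each library held between 18159685 and 23527899 reads assigned to genes. Markers of T cells and Tregs (8 of 8 with a row) summed to between 74102 and 86013 normalized counts per library, lowest in FcCD70 2. The sum hides differences between its genes. Foxp3 had 6585, 5606, 4811 and 5126 in the untreated and 5881, 2788 and 5948 in the FcCD70 libraries. Cd4 and Il2ra were also lowest in the FcCD70 library numbered 2, while Cd3g and Tnfrsf18 were highest there. Markers of CD8 and NK cells (5 of 5) summed to 118 to 188 in the untreated and 155 to 201 in the FcCD70 libraries, with Ncr1 at 0 in every library. Those of B and plasma cells (6 of 6) summed to 154 to 270 and 155 to 217. Myeloid markers (6 of 8) summed to 583 to 1074 and 671 to 1067, with S100a8 and S100a9 at 0, and erythroid markers (3 of 6) to at most 1.74. The myeloid sums of 583 and 706 in the untreated libraries numbered 1 and 2 and 671 in the FcCD70 library numbered 1 lay below the 996 to 1074 of the other 4 libraries. Nearly all of each sum was Cst3, a gene that many cell types express, with 583, 703, 1074 and 996 normalized counts in the untreated and 671, 1063 and 992 in the FcCD70 libraries, while Cd14, Csf1r and Adgre1 had at most 4.49 in any library. The part of these markers in the results was not tested.

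A cytosolic ribosome joins a small subunit, which reads the mRNA, to a large subunit, which forms peptide bonds, and each ribosomal protein is made in nearly equal amounts with the others. Ribosomal protein mRNAs are short and abundant and begin with a C followed by a run of pyrimidines, the 5′ TOP motif, through which mTOR and LARP1 govern their translation. In T cells, activation brings a rise in ribosome production before division, and MYC drives many of the genes involved.

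The sequence at the start of these genes is shown because the TOP motif lies there. Any part of it in the counts was not tested. RefSeq promoter windows (GRCm38.p6) were matched by symbol for 59 of the 76 genes, which gave 71 windows. The stretches below run 5′ to 3′ on the gene's strand from 40 bases before the annotated start to 20 after it, and the capitals mark the longest run of C and T that reaches to within 20 bases of that start. Rpl4 had the highest mean count. Rpl15, Rpl36a, Rpl39 and Rps10 passed a threshold in some fits, Rpl27a had the largest difference between the libraries numbered 2 among genes with a mean of at least 50, and Rpl22l1 and Rpl7l1 are paralogs.
Rpl4 (chr9:64173347-64173406, plus strand): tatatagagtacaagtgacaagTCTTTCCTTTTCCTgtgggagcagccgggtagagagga
Rpl15 (chr14:18270967-18271026, minus strand): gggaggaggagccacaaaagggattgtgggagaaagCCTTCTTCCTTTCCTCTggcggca
Rpl27a (chr7:109519155-109519214, plus strand): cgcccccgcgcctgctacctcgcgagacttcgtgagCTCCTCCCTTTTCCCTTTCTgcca
Rps10 (chr17:27635225-27635284, minus strand): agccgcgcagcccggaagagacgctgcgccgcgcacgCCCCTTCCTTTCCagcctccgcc
Rpl39 (chrX:37085203-37085262, minus strand): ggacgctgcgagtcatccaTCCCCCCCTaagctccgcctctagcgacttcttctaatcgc
Rpl22l1 (chr3:28805468-28805527, plus strand): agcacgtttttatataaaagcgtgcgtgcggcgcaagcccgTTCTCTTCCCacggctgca
Rpl36a (chrX:134585614-134585673, plus strand): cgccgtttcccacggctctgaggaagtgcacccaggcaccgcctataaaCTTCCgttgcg
Rpl7l1 (chr17:46782637-46782696, minus strand): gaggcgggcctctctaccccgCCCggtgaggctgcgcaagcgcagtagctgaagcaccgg

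The runs of Rpl15, Rpl27a and Rps10 spanned the annotated start and were 17, 20 and 13 bases long. In Rpl7l1 the longest run reaching to within 20 bases of the start was 3 bases long, with longer runs further upstream. Over all 71 windows, 36.6% held a pyrimidine run of at least 10 bases reaching to within 20 bases of the annotated start, against 10.6% of all 32851 RefSeq windows, and 28.2% against 16.3% had a C at the start itself. In the 300 bases from 250 before to 50 after the start, searched on both strands, CCGGAAG (the ETS motif) was in 36.6% of the windows against 8.9% of all. GGGCGG (the core of the SP1 motif) was in 59.2% against 35.7%, AAGATGGC (the YY1 motif) in 9.9% against 2.7%, and TATAAA in 9.9% against 13.6%. These matches are a description of letters, and annotated starts can differ from the starts used in these cells.

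Ribosomal protein mRNAs made up between 5.26% and 9.18% of all reads assigned to genes. In the untreated libraries numbered 1 to 4 the share was 6.26%, 5.98%, 8.67% and 9.05%, and in the FcCD70 libraries numbered 1 to 3 it was 5.26%, 9.18% and 8.03%. The untreated libraries numbered 1 and 2 and the FcCD70 library numbered 1 were the low ones, and the other 4 were high. The mean share was 7.49% ± 1.59 (SD, n = 4) without and 7.49% ± 2.01 (SD, n = 3) with FcCD70, so the groups overlapped and their means differed by far less than either spread. Without the FcCD70 library numbered 2 the treated mean was 6.65% ± 1.96 (SD, n = 2). The summed normalized count of all other genes lay between 18550284 and 18945070 in every library, with both the lowest and the highest among the FcCD70 libraries. In bulk RNA, fewer cells of a type and less RNA per cell cannot be told apart.

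**Figure D1:**
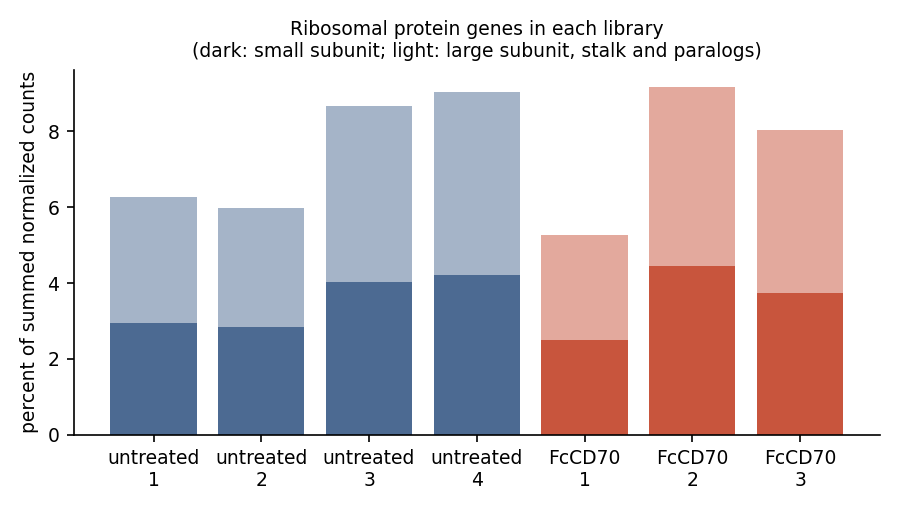
Percent of the summed normalized counts (y axis, from 0) taken by ribosomal protein genes in each of the 7 libraries (x axis), 1 bar per library, blue for untreated and red for FcCD70, the dark part the small subunit. The bars of untreated 1 and 2 and FcCD70 1 reach 5.26% to 6.26% and the other 4 reach 8.03% to 9.18%.

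Both subunits moved together. The small-subunit genes held 2.95%, 2.83%, 4.03% and 4.22% of reads in the untreated libraries and 2.50%, 4.44% and 3.74% in the FcCD70 libraries. The ratio of small- to large-subunit reads stayed between 0.945 and 0.982 in 6 libraries and was 1.02 in the FcCD70 library numbered 2. The rows named as ribosomal protein pseudogenes with -ps (6 rows) held at most 0.0026% of reads in any library. Pseudogenes under other names are not in this sum, so it does not measure all reads in pseudogene rows.

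For the 72 genes with a mean of at least 1000, each value was set against the gene's own mean over 7 libraries on the log2(normalized count + 1) scale. The median deviation was -0.25, -0.34, 0.29 and 0.34 in the untreated libraries numbered 1 to 4, and -0.54, 0.34 and 0.17 in the FcCD70 libraries numbered 1 to 3. The FcCD70 library numbered 1 was the lowest of the 7 for 71 of these 72 genes. The exception was Rps27l, which was lowest in the FcCD70 library numbered 3. The highest library was untreated 4 for 38 genes, FcCD70 2 for 29, untreated 3 for 4 and FcCD70 3 for 1.

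**Figure D2:**
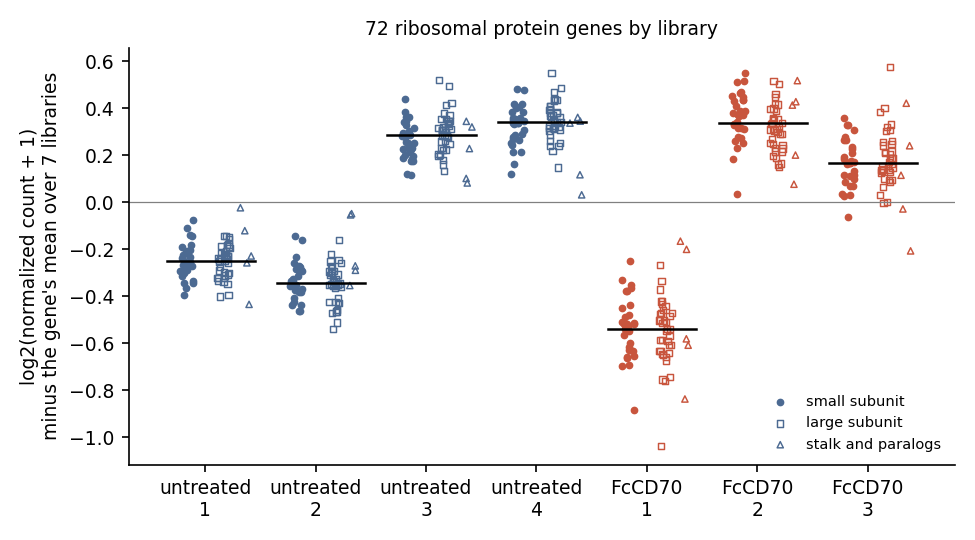
Each gene's log2(normalized count + 1) minus its mean over the 7 libraries (y axis) for 72 ribosomal protein genes in each library (x axis), blue for untreated and red for FcCD70. Points are genes, by class, and black lines are medians, which lie at -0.25, -0.34 and -0.54 in untreated 1, untreated 2 and FcCD70 1 and between 0.17 and 0.34 in the other 4 libraries.

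By level, the mean normalized counts of the 72 genes ran from 1246 to 71462 with a median of 18611, against a median of 767 over all tested genes. Per kilobase of transcript their means had a median of 25283 with quartiles of 17503 and 34131, and ran from 1504 to 67420. Rpl4, a large-subunit protein of the peptide exit tunnel (ENSMUSG00000032399, chromosome 9, 64173375 to 64178666, GRCm38), had the highest mean. Its normalized counts were 64265, 63422, 79312 and 82562 in the untreated and 58943, 80908 and 70824 in the FcCD70 libraries. Rps3, a small-subunit protein at the mRNA entry channel, had 48676, 50352, 61064 and 61150 against 47308, 75939 and 53878. Both genes were lowest in the FcCD70 library numbered 1, and Rps3 stood highest in the FcCD70 library numbered 2. Rps9, also of the entry channel, was likewise highest there, with 37661, 38680, 51364 and 50940 against 35329, 62265 and 47698. Rpsa, the small-subunit protein also known as the laminin receptor, had 39120, 36014, 54224 and 57253 against 30226, 53238 and 50491.

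The stalk genes encode the proteins of the large subunit that recruit elongation factors. Rplp0, the base of the stalk, had 37829, 37008, 56480 and 58097 normalized counts without FcCD70 and 30234, 51983 and 53438 with it. Rplp2 had 8277, 8750, 14202 and 14128 against 6261, 16014 and 14981. For each gene the untreated libraries numbered 1 and 2 and the FcCD70 library numbered 1 were the 3 lowest, and the groups overlapped.

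Among the paralogs, Rpl22l1 and Rpl7l1 were lowest in the same library as their parent genes, FcCD70 1. The parents of Rps27l, Rpl3l and Rpl10l were not compared. Rpl22, known for its role in alpha-beta T cell development, had 12921, 12458, 17558 and 18035 normalized counts against 12112, 20114 and 15596, and Rpl22l1 had 2063, 2004, 2833 and 3072 against 1586, 3220 and 2618. Rpl7l1 had a smaller range, from 1711 to 2132, than Rpl7, from 26488 to 43807. Rps27l, a known p53 target, had 1134, 1189, 1306 and 1261 against 1100, 1660 and 1069, so that it was high in the FcCD70 library numbered 2 alone. Rpl39l, best known from testis, was near the detection limit with 15, 2, 11 and 27 against 51, 19 and 10. The muscle paralog Rpl3l had 0 reads in all 7 libraries, which allows up to 3 reads in each, and Rpl10l, another testis paralog, had 1 read in 1 library.

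The FcCD70 comparison gave no called ribosomal protein gene. Limma with the replicate number as a block called 0 of 74 tested genes at a Benjamini-Hochberg adjusted p under 0.05, where it called 0% of all 11083 genes. At an unadjusted p under 0.05 it took 0 of the 74, against 1.7% of all genes, and edgeR and DESeq2 on the recovered reads also called 0 of the 74, with 0.00902% of all genes called by DESeq2. The log2 fold change (FcCD70 minus untreated) was above 0 for 70 genes and below 0 for 4, with a median of 0.09, against a median of -0.0035 over all genes tested. The small-subunit genes had a median of 0.10 (30 of 30 above 0) and the large-subunit genes 0.08 (35 of 38 above 0). The untreated library numbered 4 has no same-numbered partner and does not enter the fold change with the block. Without the block, which lets this library in, the median was -0.02 with 25 above 0 and 49 below. Without both the block and this library it was 0.09 with 70 above 0, which by design is the same estimate as with the block. With the block but without both libraries numbered 2 it was -0.20. In the authors' deposited table, with the sign turned and with 1 more library in their fit, 72 of the 74 were above 0, with a median of 0.08 and 0 genes under a p of 0.05. As deposited, the sign ran opposite to the fit made here, and the turned values correlated with that fit at 0.94. The file headers name no direction, so the turned signs are no separate support for the direction.

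The 4 highest fitted changes among genes with a mean of at least 50 were of Rps21, Rps27a, Rpl38 and Rps16. Rps21 had 10162, 10059, 14703 and 15291 normalized counts without and 9192, 18766 and 14402 with FcCD70, and its fitted log2 change was 0.24 (SE 0.20, 95% interval -0.21 to 0.69). Rps27a, which encodes ubiquitin fused to a small-subunit protein, had 15363, 13868, 22073 and 23712 against 13026, 26783 and 21140, and Rps16, which touches the P-site tRNA, had 15969, 15510, 26570 and 28031 against 13548, 27030 and 26308. Rpl38, known for its part in translating Hox mRNAs, had 6170, 5864, 10295 and 11003 against 5140, 10697 and 10204. In all 4 genes the FcCD70 libraries spanned nearly the whole range of the untreated ones or more. The 4 lowest were Rpl15, Rpl7l1, Rpl24 and Rpl9, with log2 fold changes of -0.07, -0.06, -0.05 and -0.01. Rpl39l had the smallest p (limma, unadjusted p = 0.0655, log2 fold change 1.42, SE 0.68), which rests on the few reads given above.

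Ranges of the 2 groups overlapped for all 74 tested ribosomal protein genes, and over all tested genes the groups did not overlap for 2.53%. With so small a share over all genes, the overlap is not particular to the ribosomal protein genes. The pattern between same-numbered libraries was not the same in the 3 pairs. Between the libraries numbered 1, 73 of 74 genes were lower with FcCD70, with a median log2 difference of -0.29. Between those numbered 2, 74 of 74 were higher, with a median of 0.68, that is 1.60-fold. Between those numbered 3, 68 of 74 were lower, with a median of -0.10. Over all tested genes these medians were -7.4e-05, -0.0040 and 0.00096. Each of these is 1 library against 1 library, with no test.

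The genes at the ends of these differences were of both subunits. In the libraries numbered 1, Rpl36 had a difference of -0.63 and so did Rps29, while Rps3, Rps27l and Rps14 stood at -0.04, -0.04 and -0.06. In those numbered 2, Rpl27a (0.98), Rps27a (0.95) and Rpl39 (0.93) were the highest among genes with a mean of at least 50, and Rpl7l1 (0.13) and Rpl4 (0.35) were among the lowest. Rpl24, which joins the large subunit late, was extreme in the first pair (-1.52). Its counts were only 114, 65, 117 and 171 against 39, 124 and 157, and 47.0% of its annotated exon bases are shared with Gm28037 on the same strand, so its counts are uncertain.

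Untreated libraries alone showed a difference of the same order. The mean of untreated 3 and 4 was above the mean of untreated 1 and 2 for 74 of 74 genes, with a median log2 difference of 0.60, that is 1.52-fold, against 0.01 over all tested genes. The 2 libraries within each of these sets lay close together, with a median of -0.07 for untreated 2 minus 1 and 0.05 for untreated 4 minus 3. In the FcCD70 group, library 3 minus library 1 had a median of 0.71 and library 2 minus library 1 a median of 0.85. The libraries numbered 1 and 2 were thus alike without FcCD70 and far apart with it.

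**Figure D3:**
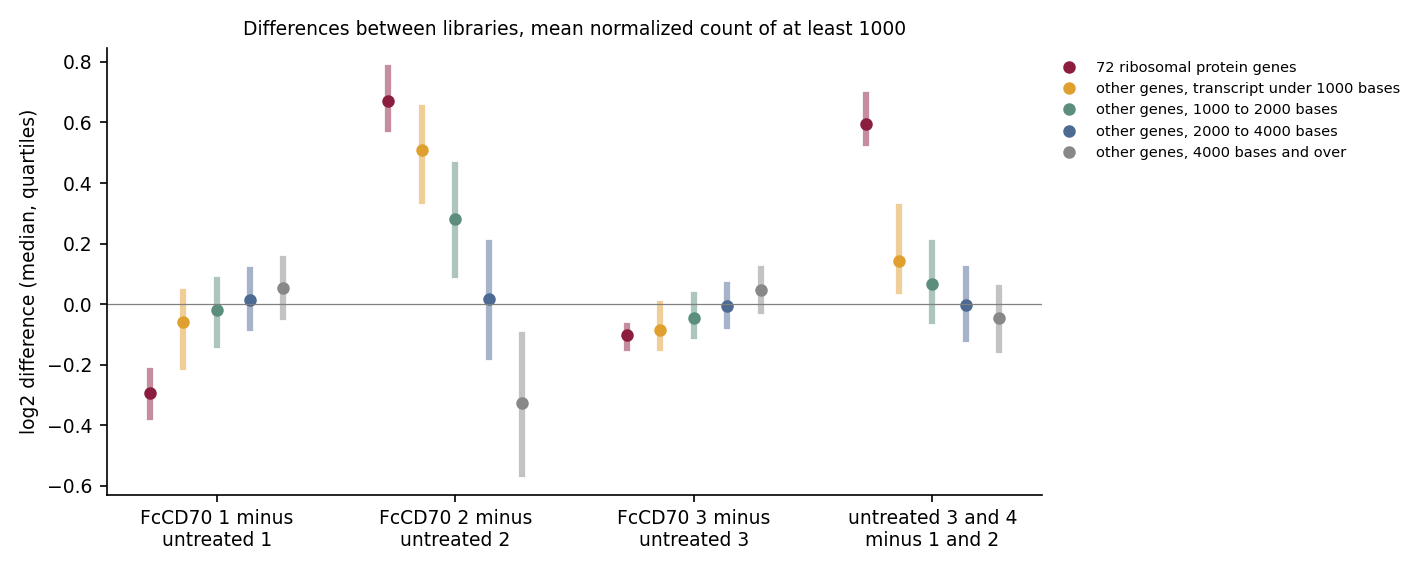
Median log2 difference (points) with quartiles (bars) on the y axis for 72 ribosomal protein genes and for other protein-coding genes by transcript length, all averaging at least 1000 normalized counts, in 4 differences between libraries (x axis). Ribosomal protein genes lie at -0.29, 0.67, -0.10 and 0.59, and other genes under 1000 bases at -0.06, 0.51, -0.09 and 0.14.

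Most ribosomal protein transcripts are short, and transcript length moved with all 4 of these differences among the other genes. Among 227 other coding genes with a mean of at least 1000 and a transcript under 1000 bases, the median difference between the libraries numbered 2 was 0.51. It was 0.28 for 874 genes of 1000 to 2000 bases, 0.02 for 1853 genes of 2000 to 4000 bases and -0.33 for 1706 longer genes. For untreated 3 and 4 minus untreated 1 and 2, the medians in the same order of length were 0.14, 0.07, -0.0023 and -0.05, against 0.59 for the 72 ribosomal protein genes. Between the libraries numbered 1 they were -0.06, -0.02, 0.01 and 0.05, against -0.29. Between those numbered 3 they were -0.09, -0.04, -0.0046 and 0.05, against -0.10. The gradient with length was steepest between the libraries numbered 2, and the median untreated difference was larger over the ribosomal protein genes than over the other short ones, with no test of that. The part of transcript length in the ribosomal protein values was not tested.

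Without the FcCD70 library numbered 2, nearly all of these genes leaned the other way. This fit used the split of numbers 1 and 2 against 3 and 4 as a covariate. The log2 fold change was below 0 for 73 of 74 genes, with a median of -0.19. The lean was not confined to them. Of the lists described further below, 26 of 27 nuclear oxidative phosphorylation genes were below 0 (median -0.15). So were 15 of 18 translation factors and other TOP mRNAs (median -0.06) and 31 of 39 ribosome assembly genes (median -0.08). Of the mTOR and MYC regulators, 5 of 16 were below 0. Limma took 69 of the 74 as lower at an unadjusted p under 0.05, against 5.04% of all genes tested. That count was 0 with neither the covariate nor the block, against 0.839% of all genes, and 28 when FcCD70 1 was also left out, against 1.61% of all genes. The covariate itself was chosen with these data's earlier results known. It is the split along which these genes differed among the untreated libraries, so the fit takes that spread out of their p-values. The genes moved together and FcCD70 1 and 3 were the only treated libraries, so the 69 are not separate pieces of evidence. With the covariate, limma called 1, Rpl39, at an adjusted p under 0.05, against 0.0541% of all genes. The groups did not overlap for 1 of 74 genes (Rps27l, lower with FcCD70), against 8.71% of all tested genes. EdgeR also called 1 of the 74 (Rpl39) and 0.0541% of all genes, and DESeq2 called 22 of the 74 and 0.46% of all genes. With neither the covariate nor the block, limma called 0 of the 74. The median of -0.19 was the same by design, since both groups are spread evenly over the split.

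Rpl39, a very small protein of the exit tunnel (ENSMUSG00000079641, chromosome X, 37082520 to 37085402, GRCm38), had 15705, 13672, 26116 and 28515 normalized counts in the untreated and 11561, 26020 and 22179 in the FcCD70 libraries.. Over all 7 libraries its log2 fold change was 0.08 (SE 0.24, 95% interval -0.46 to 0.63). Without the FcCD70 library numbered 2 it fell by 0.32 on the log2 scale (SE 0.06, limma adjusted p = 0.0459). In that fit the call was lost without untreated 1 (limma adjusted p = 0.0781), without FcCD70 1 (adjusted p = 0.999, where FcCD70 3 is the only treated library and is assumed to vary like the others) and without FcCD70 3 (adjusted p = 0.18). The count of called ribosomal protein genes was 0 without untreated 1, FcCD70 1 or FcCD70 3, 2 without untreated 2, 17 without untreated 3 and 7 without untreated 4, beside 1, 1, 0, 14, 55 and 30 of all 11083 genes in the same order.

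Other genes near this threshold were Rpl36a and Rpl15. Rpl36a, a protein of the E site, had 8120, 7072, 11982 and 12088 normalized counts against 5995, 12796 and 9948, and Rpl15 had 9079, 8633, 13371 and 13095 against 6878, 11554 and 11487. Without the FcCD70 library numbered 2 the log2 fold changes were -0.31 for Rpl36a and -0.28 for Rpl15 (limma adjusted p = 0.0506 for each). Rps10, which is ubiquitinated on collided ribosomes, had 12104, 11635, 19443 and 19900 against 9188, 18474 and 17522. Rps29 had 8370, 7224, 13488 and 13203 against 5395, 13032 and 12747, and Rps2 had 11906, 9849, 14304 and 16084 against 8125, 15821 and 14072. In these genes the FcCD70 library numbered 1 was the lowest of all 7. When both libraries numbered 2 were left out and the replicate block was kept, limma called 4 ribosomal protein genes lower (Rpl15, Rpl36a, Rpl39 and Rps29), against 0.171% of all genes tested.

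**Figure D4:**
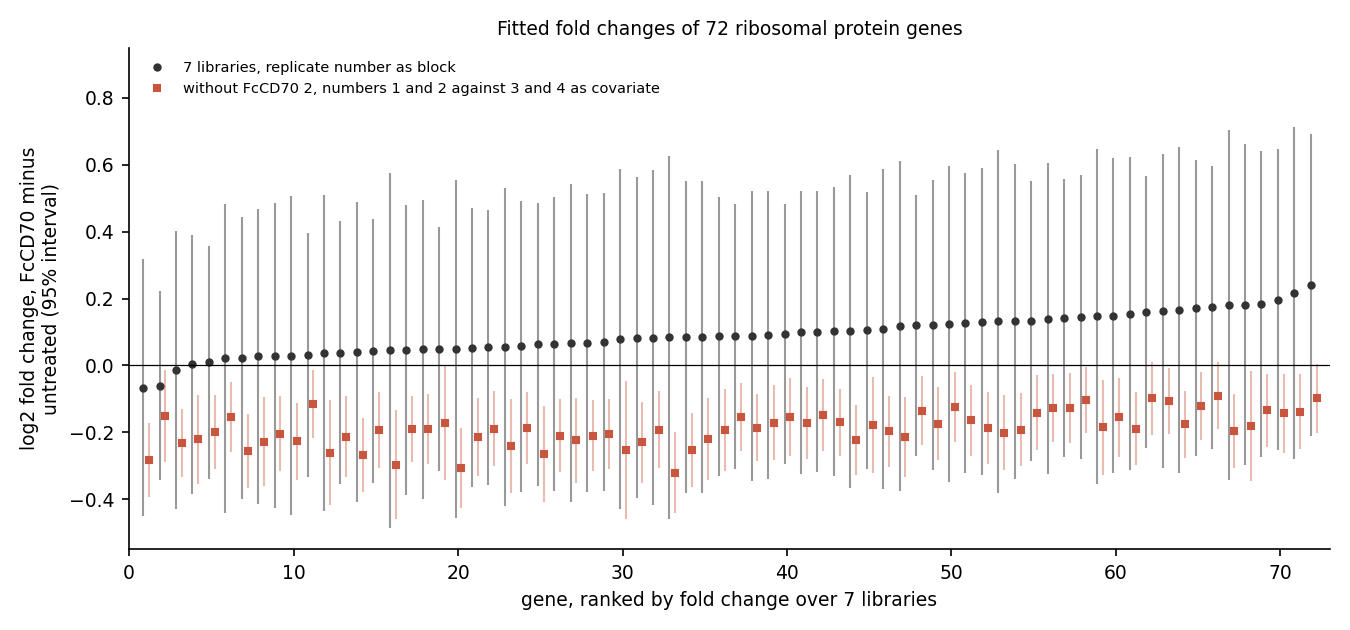
Log2 fold change of FcCD70 minus untreated (y axis) with 95% intervals (vertical lines) for 72 ribosomal protein genes (x axis, rank by the first fit), from limma over 7 libraries with the replicate block (black circles) and without FcCD70 2 with the covariate (red squares). Most circles lie above 0, with a median of 0.09 over the 74 tested genes, and all squares lie below 0, with a median of -0.19.

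How far a gene moved was repeated across groups. Over the 72 genes, the difference of untreated 3 and 4 minus 1 and 2 and that of FcCD70 3 minus FcCD70 1 had a Pearson r of 0.89 (Spearman rho 0.89). These differences share no library, but genes share depth, length and mapping, and genes are not independent replicates. With FcCD70 2 minus FcCD70 1 the r was 0.68 (rho 0.61). Rpl36 moved most, with 3735, 3588, 7081 and 6671 normalized counts against 2405, 6314 and 7357, a 3.06-fold range. Rpl19, Rpl13 and Rps29 also moved by more than most, and Rps27l (0.14), Rpl7l1 (0.15), Rps3 (0.30) and Rpl4 (0.34) were among those with the smallest untreated differences. The untreated difference had an r of -0.18 with log2 transcript length, 0.25 with GC content, 0.06 with log2 mean count and 0.34 with the share of the transcript's 50-base stretches found in other genes.

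**Figure D5:**
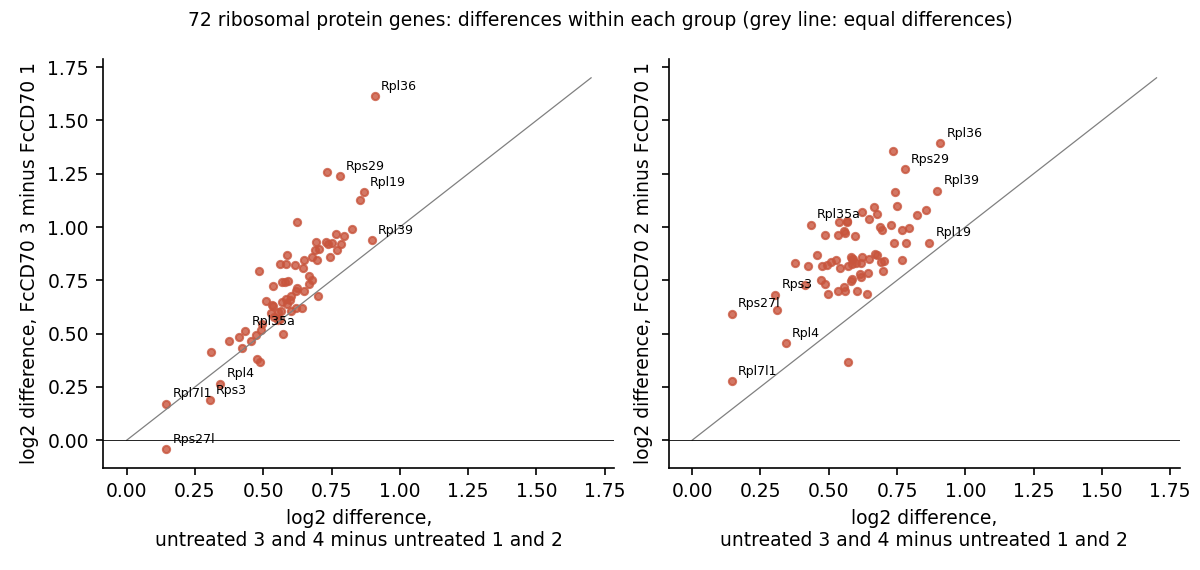
Log2 differences within the FcCD70 group (y axes, FcCD70 3 minus 1 on the left and FcCD70 2 minus 1 on the right) against untreated 3 and 4 minus untreated 1 and 2 (x axes) for 72 ribosomal protein genes, 1 point per gene, with the line of equal differences. Points lie along the line on the left (r 0.89) and mostly above it and wider on the right (r 0.68).

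The FcCD70 library numbered 2 matched untreated 3 and 4 in the median (a log2 difference of 0.01 over 72 genes) but not gene by gene. Rps27l (0.37), Rps21 (0.32), Rpl8 (0.32) and Rps3 (0.31) stood above the untreated 3 and 4 mean there, and genes such as Rpl19 (-0.32) and Rps19 (-0.24) below. Rps19, the gene most often mutated in Diamond-Blackfan anaemia, had 20623 normalized counts in this library against 23344 and 25311 in untreated 3 and 4. The small-subunit genes had a median of 0.06 in this difference (20 of 30 above 0) and the large-subunit genes -0.02 (16 of 38 above 0). Other coding genes with a mean of at least 1000 differed by transcript length here. Their medians were 0.30 under 1000 bases, 0.19 from 1000 to 2000, 0.02 from 2000 to 4000 and -0.25 for longer genes. A match in the ribosomal protein median is thus not a match over other genes.

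Reads of ribosomal protein genes can also map to processed pseudogenes: 73 of the 76 genes share at least 1 stretch of 50 bases with an annotated pseudogene, and 39 share 50% or more of their stretches with other genes. No source used here says how such reads were counted, which leaves these counts uncertain. Over the 13 genes with a mean of at least 1000 that share less than 30%, the median differences were -0.14, 0.64 and -0.14 in the 3 same-numbered pairs and 0.49 for the untreated libraries. These have the same signs as the medians over all 72 genes with that mean, but not the same sizes. Over the 72 genes the medians were -0.29, 0.67 and -0.10 in the pairs and 0.59 for the untreated libraries.

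Other genes of translation were read the same way from lists. Rack1, a scaffold on the small subunit that the naming rule leaves out, had 42957, 43384, 57641 and 58242 normalized counts against 41950, 61526 and 53875, the same order of low and high libraries. Among 18 tested genes of translation factors and other TOP mRNAs, 0 were called by limma in either fit, and their median difference was -0.09, 0.47 and -0.08 in the 3 pairs and 0.26 between the untreated libraries. Eif3f, an initiation factor subunit, had the smallest p of that list (log2 fold change 0.22). Eef2, the elongation factor that moves the ribosome along the mRNA, had 83116, 83062, 105144 and 104757 against 73500, 79019 and 108726. It was low in the FcCD70 library numbered 2, unlike the ribosomal protein genes.

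For ribosome assembly, 39 of 40 listed genes were tested and 0 were called by limma in either fit, with medians of -0.04, 0.20 and -0.13 in the 3 pairs and 0.15 between the untreated libraries. Nat10, the rRNA acetyltransferase, had the smallest p there (log2 fold change -0.33), with 1303, 1445, 1394 and 1242 against 1022, 938 and 1384. The 13 genes of RNA polymerase I gave 0 calls, and Polr1a, its largest subunit, had the smallest p (log2 fold change -0.32). Among 16 genes of the mTOR and MYC regulators, 0 were called, with a median between the libraries numbered 2 of -0.22. Mtor itself had 1602, 1733, 1532 and 1545 against 1668, 1103 and 1848, lowest in the FcCD70 library numbered 2, and Deptor, an mTOR inhibitor, had the smallest p of that list (log2 fold change 1.26) on 6 to 34 normalized counts. Myc had 1438, 1379, 2466 and 2014 against 1249, 1549 and 2394, split by number but not high in the FcCD70 library numbered 2. Of 16 other initiation factors 0 were called, with Eif1a at the smallest p (log2 fold change 0.18).

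The 10 genes of the p53 and nucleolar stress list gave 0 calls and medians of 0.04, -0.05 and -0.03 in the 3 pairs, with Bax at the smallest p (log2 fold change 0.13). Mdm2, which RPL5 and RPL11 bind when ribosome assembly fails, stayed between 2577 and 2776 in all 7 libraries. The 27 nuclear genes of oxidative phosphorylation, also mostly short, gave 0 calls and medians of -0.23, 0.59 and -0.05 in the pairs and 0.29 between the untreated libraries. Uqcrfs1, the Rieske protein of complex III, had the smallest p there (log2 fold change 0.30).

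The genes whose log2(normalized count + 1) over the 7 libraries was most like the mean of the ribosomal protein genes were sought among 9772 genes outside the rule with a mean of at least 50. They were Gm10073, Actb, Pabpc1, Mocs3, Eef1g, Tspo, Rpl36al, Rnf219, Cox5b and Prelid1, with Pearson r from 0.985 to 0.995 over 7 libraries, and 118 genes reached 0.95. Not all of them are unrelated to the ribosome. Rpl36al is a ribosome gene that the naming rule leaves out, and Eef1g is on the list of translation factors and other TOP mRNAs. Cox5b is on the oxidative phosphorylation list. Actb, cytoplasmic actin, had 73201, 69949, 86976 and 88597 normalized counts against 64692, 86957 and 86553, a smaller movement than that of most ribosomal protein genes. Pabpc1, the poly(A) binding protein, had 33211, 33434, 38005 and 38564 against 31145, 39380 and 38016. Within the ribosomal protein genes, Rps27l, Rps3 and Rpl7l1 were least like the mean, with r of 0.59, 0.85 and 0.90.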

How the data were processed

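Libraries were prepared from poly(A) RNA with a TruSeq stranded kit, per the labels' protocols. The submitters' processing notes name GRCm38.p4, TopHat2 (2), HTSeq, SAMtools and DESeq2 without role or order. Counting strand and annotation release: not given in the sources used here. The deposited library columns hold a signal, read counts over the library's size factor, as the values show: 100% of values were whole multiples of 1 step (within 0.01), so whole reads could be recovered. Per the file headers, the authors' log2 fold change, Wald score and p-values are deposited beside them.

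Computed here: limma (3.58.1, trend) on log2(value + 1) for genes with a mean of at least 10, replicate number as block, as the deposited table is named as paired, and Benjamini-Hochberg adjusted p under 0.05 over 11083 genes. The values were not raw counts, so the planned test for normalized units was used. A fold change on this scale understates that of low genes. The block fit leaves 2 residual degrees of freedom, and the fit without FcCD70 2 leaves 3. EdgeR (4.0.16) and DESeq2 (1.42.0) were run on recovered reads. On simulated reads, limma recovered most of the genes given the largest changes and was checked for false calls. Those changes were far larger than the ones fitted for most ribosomal protein genes, and the simulated libraries held no split by number. The simulation therefore does not show whether changes as small as theirs would be called. Gene positions, overlaps and transcript lengths come from GENCODE M21 (GRCm38), and promoter windows from RefSeq.

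The genes, lists and the covariate for library numbers were chosen with earlier results of these data known. Named genes were the 5 highest means, the 4 highest and 4 lowest fold changes, the smallest p, up to 6 of the 18 genes called in a planned fit, the ends of the differences between libraries numbered 1 and 2, stalk genes, paralogs and the smallest p of each other list. A few members named by it are left out by name. Others were chosen after their values were seen. Single libraries, pseudocounts, filters, scalings and tools were varied.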

Additional observations from a re-analysis of the deposited data

How the results depend on the processing

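The call of 0 ribosomal protein genes over 7 libraries held under both other pseudocounts, both other filters, both other scalings, without the replicate block, and with edgeR and DESeq2. Leaving out libraries gave 0 to 4 called genes, with the 4 lying without both libraries numbered 2, and 0 to 19 over all genes. DESeq2 called 1 gene over all genes. The median log2 fold change of the 74 genes ran from -0.20 to 0.29 over these leave-outs. Without the FcCD70 library numbered 2, the 1 called ribosomal protein gene became 0 with neither covariate nor block, 3 with a pseudocount of 5 or a mean of at least 50, 4 with scaling to the genes outside the rule, and 22 with DESeq2, which was added after seeing the data along with edgeR. Leave-outs gave 0 to 17. Over all genes the 6 calls became 0 with neither covariate nor block, 10 with scaling to the genes outside the rule, 51 with DESeq2 and 0 to 55 over the leave-outs. The median stayed below 0, from -0.25 to -0.14. The cause was not tested.

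The numbers were checked for pairing: the deviations of same-numbered libraries from their group means correlated across genes at 0.303, 0.014 and 0.435 for numbers 1 to 3. For numbers 1 and 3 these were the highest values of the libraries concerned, and for number 2 they were not. Untreated 2 correlated with FcCD70 1 at 0.255 and untreated 4 with FcCD70 3 at 0.347. Such correlations cannot decide whether same-numbered libraries were paired, since differently numbered ones correlate too. With and without the replicate block the count of calls was 0. Without the block the log2 fold change was -0.046 for Rpl4, -0.080 for Rplp0, -0.078 for Rpsa, -0.079 for Rps29, -0.087 for Rpl39 and Rps10, -0.063 for Rpl36a and -0.073 for Rps2, each above 0 with it. Over the leave-outs it ran from -0.15 to 0.11 for Rpl4, -0.12 to 0.28 for Rps3, -0.22 to 0.21 for Rplp0, -0.11 to 0.30 for Rps9, -0.24 to 0.23 for Rpsa, -0.13 to 0.39 for Rps16, -0.14 to 0.43 for Rpl38, -0.15 to 0.44 for Rps27a, -0.10 to 0.43 for Rps21, -0.31 to 0.10 for Rpl15, -0.65 to 0.68 for Rpl24, -0.24 to 0.13 for Rpl9, -0.34 to 0.35 for Rpl39, -0.36 to 0.38 for Rps29, -0.35 to 0.29 for Rpl36a, -0.27 to 0.26 for Rps10 and -0.29 to 0.33 for Rps2. In the fit without the FcCD70 library numbered 2 it ran from -1.11 to 0.15 for Rpl24 and from -0.76 to 2.88 for Rpl39l. The difference in mean share of reads between the groups (FcCD70 minus untreated) ran from -0.85 to 1.11 percentage points over the leave-outs, which were added after seeing the data. At this depth Rpl39l, Rpl10l and Rpl3l carry too few reads for a difference to be read. None of the 77 groups of 4 values examined for a single distant value held one by Dixon's 95% limit. Only the untreated group has 4 libraries, so the FcCD70 libraries were not examined in this way. Where the 4 untreated values lie as 2 close pairs, this check cannot mark a single value, so its result says little here.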
